A study of Mus musculus with 6 samples.

Results

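Cytosolic sulfotransferases were examined in liver of 6 house mice (Mus musculus) by RNA-Seq. The set held 10 genes, out of 47256 names that occur once in the table of each mouse, namely Sult1a1, Sult1b1, Sult1c2, Sult1d1, Sult1e1, Sult2a1, Sult2a8, Sult2b1, Sult3a1 and Sult5a1, taken by name and not by their values. The 3 laboratory mice were C57BL/6 males aged 17 to 18 weeks, an inbred strain. The 3 wild mice were outbred adults trapped in New South Wales and kept for 3 months before liver was taken. Wild mouse 1 was male and wild mice 2 and 3 were female, and wild mouse 3 came from another site than wild mice 1 and 2. With 1 male among the wild mice and no laboratory female, sex and origin cannot be fully told apart, and each mouse was measured once. Nothing was fixed in formalin, and none of the mice carried a transgene or a treatment that the labels name.

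Sulfotransferases move a sulfate group from the donor PAPS (3'-phosphoadenosine 5'-phosphosulfate) onto small molecules. Sulfation makes phenols, steroids, bile acids and drugs more soluble, and it inactivates hormones such as oestrogens. In mouse liver, several members are known for levels that differ between the sexes, a difference set by the pattern of growth hormone release and carried in part by the transcription factor STAT5. The names follow the families. Family 1 acts mainly on phenols and includes the oestrogen sulfotransferase Sult1e1, family 2 acts mainly on hydroxysteroids, and family 3 is known for amine conjugation.

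Expression was read as FPKM (fragments scaled to the length of the transcript and to the size of the library) and as zFPKM. The zFPKM of a gene counts how many SDs its log2 FPKM lies from the mode of all genes in that library. No counts were used, so the depth of the libraries is unknown and a gene at 0 is described only as listed at 0. The table of laboratory mouse 1 has no mark for a failed estimate, so a value listed at 0 there (Sult1e1, Sult2a1, Sult2b1 and Sult3a1) may be a failed estimate. The mode lay between 0.491 and 2.51 in log2 FPKM and the SD between 2.51 and 3.12, so a given fold in FPKM is a different step in zFPKM in each mouse. Of 6 hepatocyte markers without a failed estimate, the summed FPKM was 30042 to 41835 among laboratory mice and 23684 to 24507 in wild mice. By limma 3 of the 6 were called higher in wild mice and 3 lower, so the sum does not speak for the list. Stellate cell markers summed to 27.5 to 42.5 FPKM in the laboratory group and 71.4 to 128 in the wild group, with 0 of 5 called higher and 1 lower, biliary markers to 29.7 to 64.6 and 12.2 to 27.6, with 1 of 5 called lower, and lymphocyte markers to at most 4.31 in any mouse. Kupffer cell markers summed to 29.9 to 39.5 FPKM in the laboratory group, 10.9 in the single wild male but 37.6 and 73.6 in the females. They moved with sex among the wild mice as Sult3a1, Sult2a1 and Sult1e1 did, but wild mouse 2 lay within the range of the laboratory males. Of the 5 Kupffer markers 0 were called between wild and laboratory mice (limma, also 0 at an unadjusted p under 0.05 without the trend). Between females and males 1, Cd68, was called higher in females (limma adjusted p = 0.0444), and 5 of 5 were higher at an unadjusted p under 0.05 without the trend. Sinusoidal endothelial markers summed to 16.7 to 27.1 FPKM in the laboratory group, 15.2 in the single wild male but 50.7 and 28.7 in the females, with 0 of 5 called by limma in either comparison (3 of 5 higher in females at an unadjusted p under 0.05 without the trend). Acinar pancreas markers summed to at most 17.2 FPKM, of which Cela1 gave 17.1. Erythrocyte markers summed to 876 to 3526 in the laboratory group and 507 to 1248 in the wild group, with 4 of 4 called lower in wild mice by limma. Enterocyte markers summed to 24.2 to 43.4 FPKM over all mice, but Fabp2 alone gave 24.0 to 43.4. The other enterocyte markers, Vil1, Lct, Sis and Alpi, were at most 0.127. Keratinocyte markers summed to at most 1.23 and kidney tubule markers to at most 0.0631, of which 3 of 4 were at 0 in every mouse. Of all tested genes, 7.29% were called higher and 7.16% lower in wild mice, and 0.29% higher in females. The part of these markers in the results was not tested. Xist was at 7.18 and 40.6 FPKM in wild mice 2 and 3 and at most 0.0506 in the other mice, which matched the labelled sexes. In bulk liver, fewer cells of a type and less RNA per cell cannot be told apart.

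The genes lie in several clusters on GRCm38. Sult1b1, Sult1d1 and Sult1e1 are neighbours on chromosome 5, at chr5:87513339-87538195, chr5:87554650-87569006 and chr5:87575968-87591611. Sult2a1 (chr7:13796246-13837410) and Sult2a8 (chr7:14410686-14446780) lie in a cluster of Sult2a genes on chromosome 7, where Sult2b1 (chr7:45729981-45759672) and Sult1a1 (chr7:126672865-126690443) lie further along. Sult3a1 is at chr10:33851020-33879475, close to Sult3a2, Sult1c2 is at chr17:53829637-53845958, and Sult5a1 is at chr8:123142843-123158914. Stretches of 250 bases before a RefSeq transcription start are shown because their genes differed in how they moved: Sult3a1 and Sult1e1, whose FPKM in the wild male lay far below that in the wild females, and Sult1d1, the neighbour of Sult1e1, whose FPKM in the wild male lay close to that in the wild females. They were read from RefSeq tables of GRCm38.p6 and are written 5′ to 3′, with any TTCNNNGAA, the motif that STAT5 factors bind, in capitals. The motif reads the same on both strands.
Sult3a1, chr10:33857472-33857721, plus strand: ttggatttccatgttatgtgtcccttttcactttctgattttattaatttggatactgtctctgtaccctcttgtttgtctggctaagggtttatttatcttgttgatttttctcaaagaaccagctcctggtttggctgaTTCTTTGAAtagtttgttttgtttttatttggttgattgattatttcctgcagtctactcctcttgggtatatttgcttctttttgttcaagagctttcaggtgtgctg
Sult1e1, chr5:87591612-87591861, minus strand: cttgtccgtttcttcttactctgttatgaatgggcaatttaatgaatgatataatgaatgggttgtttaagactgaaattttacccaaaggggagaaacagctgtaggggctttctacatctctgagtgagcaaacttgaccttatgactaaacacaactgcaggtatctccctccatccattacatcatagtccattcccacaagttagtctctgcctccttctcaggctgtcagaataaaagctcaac
Sult1d1, chr5:87569007-87569256, minus strand: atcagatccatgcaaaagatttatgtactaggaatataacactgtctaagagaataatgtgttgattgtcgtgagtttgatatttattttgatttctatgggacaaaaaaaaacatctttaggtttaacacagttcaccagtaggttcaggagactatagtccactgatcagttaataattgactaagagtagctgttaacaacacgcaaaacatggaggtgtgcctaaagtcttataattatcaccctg

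The motif stood in the Sult3a1 stretch, with its first base 109 bases before the start (position -109), and in neither of the others. The Sult3a1 stretch lies inside the span the files list for that gene, downstream of its listed start. Of the 20 such stretches found for 17 of 21 cytosolic sulfotransferase genes, 1 held the motif, beside 7.02% of 32851 stretches in the table. A stretch was found for 9 of the 10 genes, the exception being Sult2a1. A match of letters is a description and not a binding site.

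The widest gaps between mice were those of Sult3a1, Sult2a1 and Sult1e1, which were high in the 2 wild females and low in the 4 males. Sult3a1 was listed at 0 in laboratory mice 1, 2 and 3, and reached 0.438 FPKM in the single wild male against 2076 and 1932 in the wild females. In the females it ranked 46th and 43rd of all gene names by FPKM, while in the single wild male its rank was 11850. Sult2a1, the hydroxysteroid sulfotransferase of this group that acts on bile acids, was listed at 0 in all 3 laboratory mice, with 0.254 FPKM in the single wild male against 982 and 675 in the females. The 3 laboratory mice and the wild male lay far below both females for each of these genes, and the wild male lay next to the laboratory males. The deposited Cufflinks bounds on FPKM for the wild male were 0.105 to 0.771 for Sult3a1 and 0.0200 to 0.489 for Sult2a1.

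Sult1e1, which sulfates and so inactivates oestrogens, was listed at 0 in laboratory mouse 1 and stood at 0.0895 and 0.0485 FPKM in the other two, for which the deposited bounds reach 0. It stood at 1.18 FPKM in the single wild male, and at 106 and 33.7 in wild mice 2 and 3. Here the wild male lay above every laboratory male, and the females lay 59.5 times above the wild male on the mean FPKM of the 2 females. The 2 females also differed from each other, with wild mouse 2 more than 3 times as high as wild mouse 3.

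**Figure D1:**
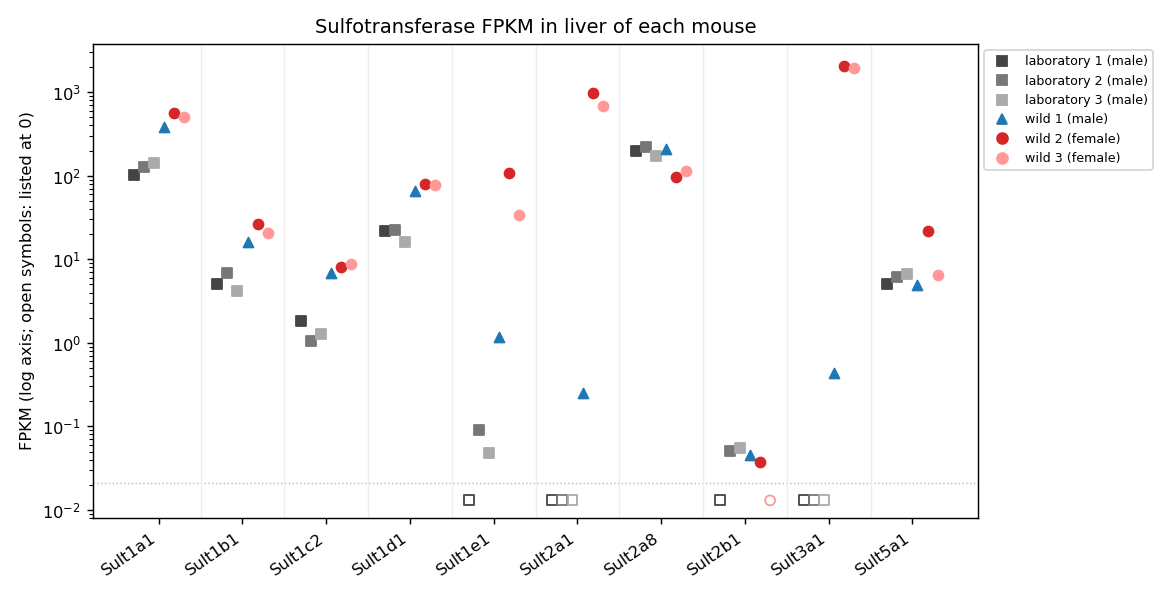
FPKM of the 10 sulfotransferase genes (log axis) in each of the 3 laboratory males, the wild male and the 2 wild females; open symbols below the dotted line mark values listed at 0. Sult3a1, Sult2a1 and Sult1e1 sat at 33.7 or more in the wild females and at 1.18 or less in the 4 males, while Sult1a1, Sult1b1, Sult1c2 and Sult1d1 were higher in every wild mouse than in any laboratory mouse.

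Sult1a1, the main phenol sulfotransferase, had FPKM of 103, 128 and 141 in the laboratory group and of 383, 561 and 507 in wild mice 1, 2 and 3. Sult1d1, which acts on dopamine and other catechols, had FPKM of 21.9, 22.3 and 16.1 in the laboratory group and of 65.6, 80.4 and 76.9 in the wild mice. For both, every wild mouse lay above every laboratory mouse, and the mean FPKM of the wild mice was 3.89 times that of the laboratory mice for Sult1a1 and 3.70 times for Sult1d1.

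Sult1b1, which acts on thyroid hormones, had FPKM of 5.00, 6.92 and 4.20 in the laboratory group and of 16.2, 26.5 and 20.9 in the wild mice, a ratio of 3.94. Sult1c2, at the lowest level of these phenol enzymes, had FPKM of 1.83, 1.05 and 1.26 and of 6.82, 8.17 and 8.71, a ratio of 5.73. In FPKM the groups did not overlap for any of Sult1a1, Sult1b1, Sult1c2 and Sult1d1. In zFPKM they overlapped for Sult1b1, where the wild male stood at 0.56 and laboratory mouse 2 at 0.66, and for Sult1c2, where the wild male stood at 0.10 and laboratory mouse 1 at 0.12. By FPKM the wild male alone stood at 3.08, 3.01, 4.95 and 3.26 times the laboratory mean. Non-overlap in FPKM with wild mice higher held for 43.7% of the 18632 genes tested and with wild mice lower for 12.1%, so this was common. On log2(FPKM + 0.1) the median of all tested genes was itself 0.47 higher in wild mice. Relative to a median of 0 in each mouse, a setting chosen after seeing the data, the 4 genes lay 1.15 to 1.72 higher (limma adjusted p = 0.00318 to 0.00969). Such calls were common on that setting, with 8799 of the 18632 tested genes called.

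Sult2a8, a hydroxysteroid sulfotransferase known for sulfating bile acids, had FPKM of 199, 219 and 171 in the laboratory group, of 211 in the single wild male and of 96.4 and 114 in the wild females. In FPKM the wild male lay among the laboratory males and both females lay below all 4 males. Its zFPKM was 2.30, 2.29 and 2.11 for laboratory mice 1, 2 and 3 and 1.94, 1.69 and 1.75 for wild mice 1, 2 and 3, so on that scale the groups did not overlap and the place of the wild male depends on the scale. On log2(FPKM + 0.1) Sult2a8 did not pass (limma adjusted p = 0.156). With a median of 0 in each mouse the difference was -1.30 on that scale (0.0226), while on zFPKM it did not pass (-0.47, 0.134). The wild male's FPKM was 1.07 times the laboratory mean and 2.01 times the mean of the wild females.

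Sult5a1 had FPKM of 5.07, 6.05 and 6.61 in the laboratory group and of 4.86, 21.7 and 6.50 in the wild mice, so that wild mouse 2 alone stood apart and the groups overlapped. Sult2b1, which sulfates cholesterol and is best known from skin, was listed at 0 in laboratory mouse 1 and wild mouse 3 and was at most 0.0555 FPKM in the others. The deposited bounds reach 0 in those 4 mice. On log2(FPKM + 0.1) with a median of 0 in each mouse Sult2b1 was called lower in wild mice (-0.82, limma adjusted p = 0.0342), a call that no other setting gave, and its sign varied between settings.

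In the laboratory males the order by mean FPKM was Sult2a8 (196 ± 23.8, SD, n = 3), Sult1a1 (124 ± 19.4), Sult1d1 (20.1 ± 3.49), Sult5a1 (5.91 ± 0.782), Sult1b1 (5.37 ± 1.40) and Sult1c2 (1.38 ± 0.406), with the other 4 below 0.1. Of these neighbours, Sult5a1 and Sult1b1 overlapped. In the wild females the order began with Sult3a1 (2004), Sult2a1 (828), Sult1a1 (534) and Sult2a8 (105), and then Sult1d1 (78.7) and Sult1e1 (70.1), whose values overlapped. In the wild male Sult1a1 came first at 383, ahead of Sult2a8 at 211.

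The make-up of the sulfotransferase pool differed accordingly. Over 21 cytosolic sulfotransferase genes the summed FPKM was 337 to 384 in the laboratory group, 695 in the single wild male but 5286 and 4562 in the females. Sult2a8 made up 50.1 to 59.1% of that sum in the laboratory group, 30.3% in the single wild male and 1.82 and 2.49% in the females. Sult3a1 made up 39.3 and 42.4% of the sum in the females and 0.0630% in the single wild male. These are shares of FPKM, a level per length, and the other high genes in the females were Sult2a1 with 18.6 and 14.8%, Sult2a2 with 8.54 and 8.63% and Sult3a2 with 8.26 and 8.95%.

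**Figure D2:**
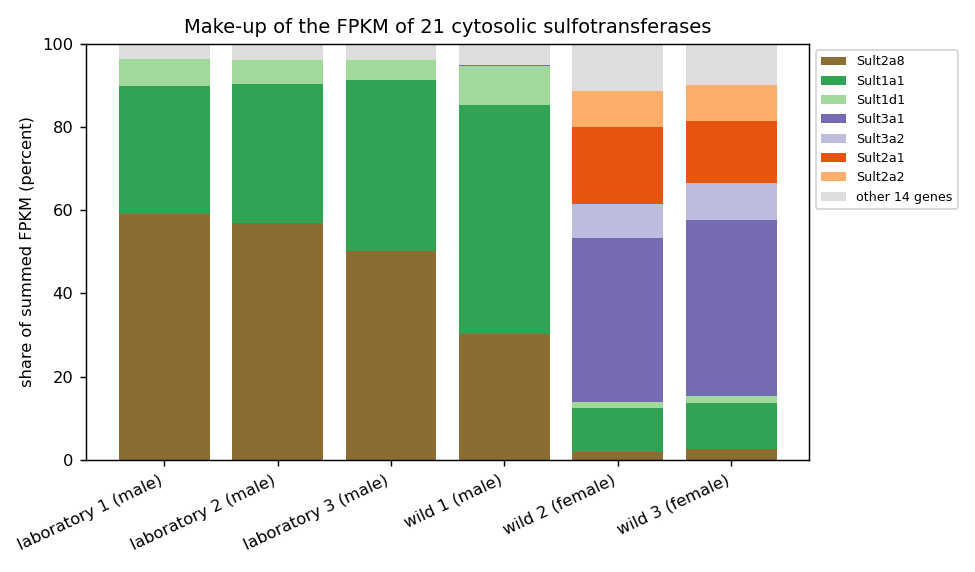
Stacked bars give the share (percent) of the summed FPKM of 21 cytosolic sulfotransferase genes that each named gene made up in each of the 6 mice. Sult2a8 and Sult1a1 fill most of the bars of the 4 males, and Sult3a1, at 39.3 and 42.4%, is the largest share in both wild females.

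Reads of close relatives can be assigned to one gene or the other. Sult2a1 and Sult2a2 were 98.5% identical over 525 aligned transcript bases, and 11.4% of the 100-base windows of the longest Sult2a1 transcript also occur in Sult2a2 or Sult2a5. Sult3a1 and Sult3a2 were 90.8% identical over 893 bases but shared no whole window of 100 bases. Summed over Sult2a1 to Sult2a7, FPKM was 0.527, 0.580 and 0.743 in the laboratory group, 6.42 in the single wild male but 1873 and 1454 in the females. The sum of Sult3a1 and Sult3a2 was 0 in the laboratory group, 0.561 in the single wild male and 2512 and 2340 in the females. Both females stayed far above the 4 males in the sums, with a narrower gap to the wild male for the Sult2a sum, where Sult2a7 gave 6.05 of the 6.42 FPKM. Sult2a8 shared no window with another gene.

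The 10 genes were compared between wild and laboratory mice on zFPKM with limma (lmFit and eBayes with trend), fitted to all 18632 genes with zFPKM above -3 in at least 3 mice, values below -3 set to -3, and Benjamini-Hochberg adjustment over all of them. Differences are wild minus laboratory. Sult3a1 and Sult2a1 passed the filter through the wild mice alone, with the laboratory mice at the floor, so they had to differ and their p-values are no support. With these included, 5 of the 10 genes were called higher and 1 lower at an adjusted p under 0.05, beside 7.29% of all tested genes called higher and 7.16% called lower (14.4% in all). The same 6 genes did not overlap between the groups in zFPKM, beside 28.3% of all tested genes, 14.1% with wild mice higher and 14.2% lower. Sult1e1 rose by 3.01 ± 0.380 (SE, limma adjusted p = 4.28e-13). Sult1a1 rose by 0.41 ± 0.111 (0.00308) and Sult1d1 by 0.41 ± 0.143 (0.0312), and Sult2a8 fell by 0.44 ± 0.116 (0.00246). With a median of 0 in each mouse on zFPKM the calls for Sult1a1 (0.38, limma adjusted p = 0.177) and Sult2a8 (-0.47, 0.134) were lost. The differences of Sult3a1 (4.63 ± 0.356) and Sult2a1 (4.25 ± 0.388) depend on the floor and are no fold changes. On log2(FPKM + 1) neither passed (limma adjusted p = 0.0629 for Sult3a1 and 0.0676 for Sult2a1).

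The other 4 genes did not pass. The differences were 0.45 ± 0.183 for Sult1b1 (limma adjusted p = 0.0857), 0.65 ± 0.242 for Sult1c2 (0.0513), -0.06 ± 0.199 for Sult5a1 (0.888) and -0.12 ± 0.448 for Sult2b1 (0.907). With the trend, limma took the spread of each gene wholly from that of genes at a like level, because the prior degrees of freedom were infinite. The SD of zFPKM among the wild mice was 2.61 for Sult3a1, 2.53 for Sult2a1 and 1.35 for Sult1e1, which that fit does not use. Without the trend, limma called 0 of the 10 genes, 2 of them, Sult1e1 and Sult3a1, at adjusted p = 0.0544 and 0.0613 and Sult2a1 at 0.0706, while at an unadjusted p under 0.05 5 of the 10 passed (Sult1c2, Sult1e1, Sult2a1, Sult2a8 and Sult3a1), beside 21.2% of all tested genes. With the trend but no filter on low values, 0 of the 10 passed, each at an adjusted p of 0.388 or more. The call for Sult1d1 was also lost without laboratory mouse 2 (0.0555), laboratory mouse 3 (0.146), wild mouse 1 (0.0587), wild mouse 2 (0.234) or wild mouse 3 (0.235), that for Sult1a1 without wild mouse 2 (0.0711) or 3 (0.0756), and that for Sult2a8 without wild mouse 2 (0.0581). The two-sided exact permutation test on log2(FPKM + 0.1) gave p = 0.1, the smallest 3 mice against 3 allow, for Sult1a1, Sult1b1, Sult1c2, Sult1d1, Sult1e1, Sult2a1 and Sult3a1, and p = 0.3 for Sult2a8. The p-values reach no further than these mice. In the limma fit of all mice with the trend and the filter, they rest on the spread of genes at a like level. They do not measure the spread of the gene itself between the mice.

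**Figure D3:**
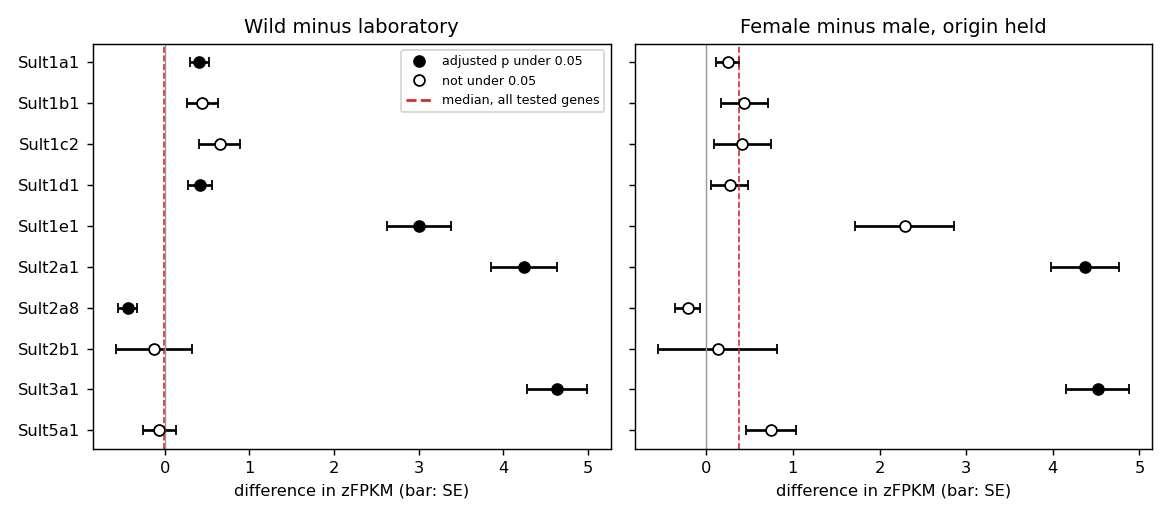
Differences in zFPKM (points, with SE as bars) between wild and laboratory mice (left) and between females and males with origin held (right); filled points have a limma adjusted p under 0.05 and the dashed line is the median over all tested genes. Sult3a1, Sult2a1 and Sult1e1 lie far to the right on both sides, and Sult1a1, Sult1b1, Sult1c2 and Sult1d1 lie near the median of all genes, 0.38, on the right.

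A second limma fit held both origin and sex as terms. It rests on the single wild male, who is assumed to vary like the others. Female minus male with origin held, Sult3a1 was higher by 4.52 ± 0.362 (limma adjusted p = 0.000147) and Sult2a1 by 4.37 ± 0.394 (0.000258), beside 0.344% of 18631 tested genes called, 0.29% higher and 0.0537% lower in females. Both calls held without the trend (adjusted p = 0.00648 for each). For both genes all 3 laboratory males were set to the floor, so the floor made their SD of 0. The p-values of these 2 genes in this term are therefore no support. Sult1e1 was 2.29 ± 0.576 higher in females but did not pass (0.157). Sult1a1, Sult1b1, Sult1c2 and Sult1d1 gave 0.25, 0.44, 0.41 and 0.27, near the median of 0.38 over all tested genes, and their sign turned when each mouse was set to a median of 0. In limma fits without wild mouse 2 or without wild mouse 3, 0 of the 10 genes passed, and without laboratory mouse 3, 6 did.

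Wild minus laboratory with sex held, which sets the wild male against the 3 laboratory males, Sult3a1 was 1.62 ± 0.341 higher (limma adjusted p = 0.0157) and Sult2a1 1.33 ± 0.371 higher (0.0495), beside 7.06% of all tested genes called, 1.27% higher and 5.8% lower in wild mice. Both compare an FPKM under 0.5 with genes listed at 0. Since both genes passed the filter through the wild mice alone, they had to differ in this term too. The sizes of these 2 differences depend on the floor and their p-values are no support. Sult1e1 was 1.48 ± 0.543 higher (0.118). Sult2a8 was -0.30 ± 0.139 on zFPKM (0.226) and 0.11 on log2(FPKM + 0.1), and the median of all tested genes in this term was -0.27 on zFPKM. Sult1a1, Sult1b1, Sult1c2 and Sult1d1 gave 0.25, 0.15, 0.37 and 0.23 in this term and did not pass (limma adjusted p = 0.265, 0.770, 0.514 and 0.536). On log2(FPKM + 1) those 4 were the genes called (0.00530 to 0.0152), while Sult3a1 (0.0512) and Sult2a1 (0.368) did not pass. Without wild mouse 2 or wild mouse 3, 0 of the 10 genes were called on zFPKM.

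Most of the close relatives of Sult3a1 and Sult2a1 were also high in the wild females. Of 11 other cytosolic sulfotransferases, 6 were tested and 5 were called higher in wild mice by limma, beside 7.29% of all tested genes. Of these 5, 4 passed the filter through the wild mice alone and so had to differ, the exception being Sult2a7. Female minus male, the same 4 were called higher, beside 0.29% of all tested genes. Without the trend 0 of the 5 were called between wild and laboratory mice (adjusted p = 0.0931 to 0.157), and the same 4 were called between females and males (0.00648 to 0.00767). All laboratory males were at the floor for these 4, without spread, so their p-values are no support. Sult3a2 had FPKM of 437 and 408 in the females and 0.123 in the single wild male, and Sult2a2 of 452 and 394 and of 0.0389, with all laboratory mice listed at 0. Sult2a7 differed, with FPKM of 0.527, 0.580 and 0.743 in the laboratory group, 6.05 in the single wild male and 5.41 and 146 in the females, so that wild mouse 3 alone was high. Sult2a3 and Sult2a6 had FPKM of 47.0 to 151 in the females and were listed at 0 in all males. They had too few mice above the floor to test.

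The 5 tested genes whose log2(FPKM + 0.1) over the 6 mice, less their own mean, lay nearest to Sult3a1 were Sult2a1 (mean absolute difference 0.53), Cyp3a41a (0.61), Cyp3a41b (0.66), Sult3a2 (0.96) and Sult2a2 (1.07). Cyp3a41a had FPKM of 0.0416 to 0.0576 in the laboratory group, 2.64 in the single wild male and 1753 and 1611 in the females. Nearest to Sult2a8 were Cyp26c1, 1700021F05Rik, Ifi35, Sdhaf1 and Gm16238, with mean absolute differences of 0.08 to 0.09, of which Cyp26c1 and Gm16238 were under 0.3 FPKM in every mouse.

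PAPS, the sulfate donor, is made by Papss1 and Papss2, and its used form is broken down by Bpnt1. Of 6 tested genes of PAPS synthesis, transport and breakdown, 2 were called higher in wild mice and 0 lower. Of all tested genes, 7.29% were called higher and 7.16% lower. The median difference of the list was 0.20 against 0.00 over all tested genes. Papss2 had FPKM of 14.4, 21.2 and 25.7 in the laboratory group and of 85.6, 135 and 96.7 in the wild mice, a rise of 0.56 ± 0.139 in zFPKM (limma adjusted p = 0.00102). Bpnt1 had FPKM of 2.83, 4.45 and 2.88 and of 27.6, 21.2 and 21.1, a rise of 0.74 ± 0.190 (0.00176). In zFPKM neither gene overlapped between the groups, beside 14.1% of all tested genes not overlapping with wild mice higher. Neither was called between females and males.

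Sulfate itself comes from transport and from the oxidation of cysteine sulfur. Of 10 tested genes of sulfate supply, 4 were called higher and 0 lower, beside 7.29% and 7.16% of all tested genes. The median difference was 0.30. Suox, sulfite oxidase, which makes sulfate from sulfite, had FPKM of 1.31, 2.21 and 1.24 in the laboratory group and of 73.3, 34.2 and 44.3 in the wild mice, a rise of 1.50 ± 0.191 (limma adjusted p = 6.55e-13). Got1, an aspartate aminotransferase that also acts on cysteine sulfinate, rose by 1.09 ± 0.137 (2.69e-13), Sqor, which oxidises sulfide, by 0.62 ± 0.133 (9.67e-05) and Ethe1, the persulfide dioxygenase, by 0.37 ± 0.122 (0.0216). With sex held Suox and Got1 were called higher (limma adjusted p = 0.0080 and 0.0101), beside 1.27% of all tested genes. Without the trend they were not called in this term (0.0834 and 0.114). Cdo1, cysteine dioxygenase, was the highest of the list, at 737 to 1009 FPKM among laboratory mice and 1150 to 1720 in wild mice.

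**Figure D4:**
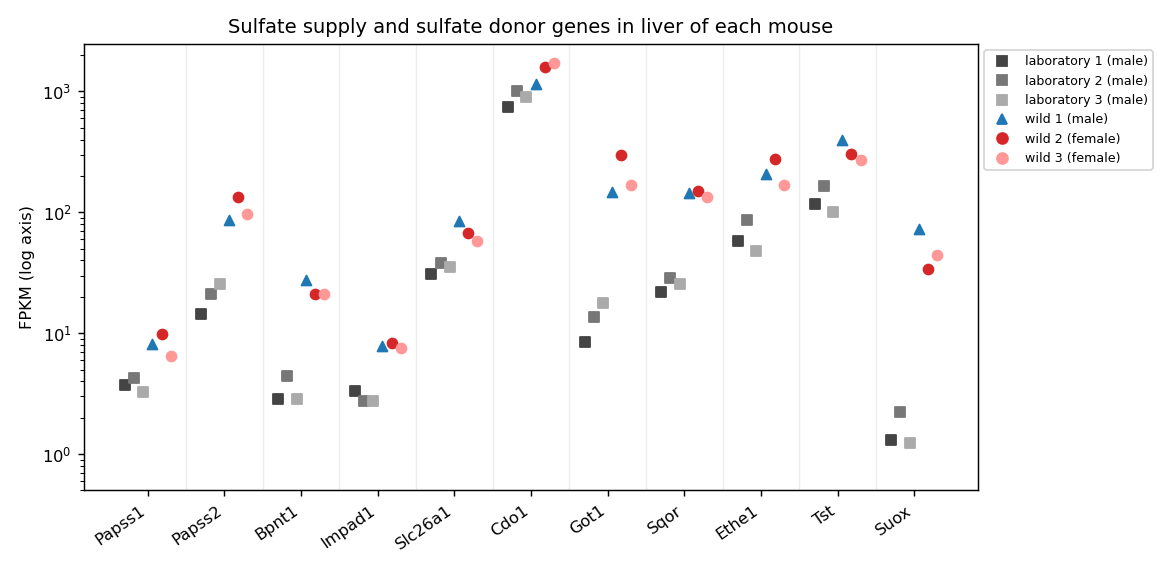
FPKM (log axis) of genes of PAPS and sulfate supply in each mouse, with the symbols of the 3 laboratory males, the wild male and the 2 wild females. Suox shows the widest gap between the groups, 1.24 to 2.21 against 34.2 to 73.3, and the wild male lies above both wild females for Suox and Bpnt1.

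Without the trend, limma still called Suox (adjusted p = 0.0230) and Got1 (0.0307) of the genes named from these lists, while Papss2 (0.157), Bpnt1 (0.124), Sqor (0.118) and Ethe1 (0.358) did not pass.

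Of 12 tested sulfatase genes, which remove sulfate, only Sumf1, the factor that activates sulfatases, was called, with FPKM of at most 1.10 among laboratory mice and of 8.47 to 13.3 in wild mice (0.94 ± 0.239, limma adjusted p = 0.00160). Of 25 tested membrane-bound sulfotransferases, which modify sugars and proteins in the Golgi, only Ndst1 was called, at 4.03 to 5.21 and 22.6 to 26.1 FPKM (0.60 ± 0.183, 0.0110). Without the trend neither passed (0.0803 and 0.187). In that setting Chst3, a membrane-bound enzyme at no more than 0.146 FPKM, was called lower in wild mice (-1.07, limma adjusted p = 0.0375). With the trend, 7.29% of all tested genes were called higher and 7.16% lower in wild mice. The highest of the membrane-bound enzymes by mean FPKM was Hs6st1.

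Of 20 tested transcriptional regulators of sulfotransferases, 4 were called higher and 2 lower in wild mice, beside 7.29% and 7.16% of all tested genes. However, the zFPKM of 2 of the 4, Cux2 and Trim24, overlapped between the groups. Nr1h4, the bile acid receptor, fell by 0.51 ± 0.135 (limma adjusted p = 0.00238), with FPKM of 52.8 to 95.6 among laboratory mice and 36.5 to 52.0 in wild mice. Bcl6, a repressor known as higher in male liver, fell by 0.60 ± 0.194 (0.0188), although its FPKM of 8.60 to 15.1 among laboratory mice overlapped with that of the wild mice. Among the latter its FPKM was 2.03 in the male but 7.09 and 13.3 in the females, so it was lowest in the wild male (female minus male with origin held 1.14, limma adjusted p = 0.0554). Rxra, the partner of many nuclear receptors, rose by 0.55 ± 0.145 (0.00243). Without the trend Nr1h4 (0.184), Bcl6 (0.345) and Rxra (0.174) did not pass. Ghr, the growth hormone receptor, was the highest of the list, at 104 to 133 FPKM among laboratory mice and 167 to 204 in wild mice. Cux2, known as a factor of female liver, had FPKM of 0.0499 to 0.0903 among laboratory mice, 0.0808 in the single wild male but 6.10 and 7.79 in the females, and was the only regulator called between females and males (2.70, limma adjusted p = 0.0304), a call lost without the trend (0.135). The females thus stood apart for Cux2 as they did for Sult3a1 and Sult2a1.

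Other genes known to differ between the sexes in mouse liver were measured beside these. Of 14 tested genes known as higher in females, 13 were called higher in wild mice, beside 7.29% of all tested genes. With origin held 7 were called higher in females, beside 0.29%. With sex held 10 were called higher in wild mice, beside 1.27%. Of these 14, 3 (Cyp2b9, Cyp2b13 and A1bg) were listed at 0 in all 3 laboratory mice and passed the filter through the wild mice alone, so they had to differ. Without the trend, limma called 6 of the 14 between wild and laboratory mice and 1 between females and males. The 6 included Cyp2b9, and the 1 was Cyp2b13 (limma adjusted p = 0.00767). All laboratory males were at the floor for Cyp2b9, Cyp2b13 and A1bg, without spread, so their p-values are no support in any term. Of 10 tested genes known as higher in males, 8 were called lower in wild mice, beside 7.16% of all tested genes. With origin held 3 were called lower in females, beside 0.0537%. Without the trend these counts were 2 and 0 (8 and 6 at an unadjusted p under 0.05). With sex held 3 were called lower in wild mice, beside 5.8%. The summed FPKM of the first list was 71.2 to 98.4 among laboratory mice, 702 in the single wild male but 6797 and 5601 in the females. That of the second list was 5557 to 9404 among laboratory mice, 1606 in the single wild male but 503 and 410 in the females, and most of it was Serpina1e in the laboratory group. Without Serpina1e it was 1047 to 1623 among laboratory mice, 1222 in the single wild male but 156 and 184 in the females. This sum of the wild male lay within the laboratory range, but 655 of it was Cyp2d9, and single genes left that range. Hsd3b5 was at 4.21 FPKM in the wild male against 60.3 to 104, and Slco1a1 at 135 against 32.4 to 38.5. Of the 702 FPKM of the first list in the wild male, Cyp4a10 gave 400, more than its 266 and 338 in the females.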

How the data were processed

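Livers of 3 laboratory and 3 wild mice were measured by stranded mRNA-Seq (single reads, 100 bases). For alignment the authors used kalign and a masked mouse genome (GRCm38.p6), and they deposited FPKM from the Tuxedo pipeline and a zFPKM score made from them in R, with Cufflinks' bounds in FPKM for 5 mice. FPKM are not counts, so the authors' edgeR test was not repeated. Picard is also named in the submitters' processing notes.

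Gene names that occur once in each table were kept. Values marked FAIL or HIDATA were missing, which is not marked for laboratory mouse 1. Comparisons were fitted with limma 3.58.1 in R 4.3.3 over all genes with zFPKM above -3 in at least 3 mice and at least 2 values in each group, values below -3 set to -3, and called at an adjusted p under 0.05. Log scales used pseudocounts of 0.1 and 1. Summaries and figures were made in Python 3.11.15. Promoters came from RefSeq (GRCm38.p6) and transcripts from GENCODE on GRCm38. File starts count from 0, and 1 was added. Sult1b1 starts at another base in the RefSeq table.

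The 10 genes and the lists were chosen with earlier results of these data known. Named genes were all 10, then for each list the called members whose groups did not overlap, up to the 4 largest, with the highest by mean FPKM, and the nearest patterns to the largest rise and fall. Some genes that this rule names are not reported here. In simulated data, 200 of 18632 genes were moved by 2 zFPKM units. The fit for wild against laboratory recovered 80.5% (2.42% of calls false), with sex held 53.0%, and the sex term 46.5%. Every moved gene was moved by this same step, so these shares are no support for the calls of the 10 genes. The alternatives were other scales, floors and filters, quantile normalization, a median of 0, no trend, repeated names, sex as a covariate and each mouse left out. The absolute depth is unknown.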

Additional observations from a re-analysis of the deposited data

How the results depend on the processing

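No paired analysis was possible because no laboratory mouse was matched to a wild mouse. The call counts of the 10 genes between wild and laboratory mice stayed within 1.5 times of 6 on log2(FPKM + 1), log2(FPKM + 0.1), a floor of -5, a mean FPKM of at least 1, quantile normalization, a median of 0 and repeated names, and on log2(FPKM + 0.1) with a median of 0 (9 genes, chosen after seeing the data), but the genes changed. A median of 0 lost Sult1a1 and Sult2a8 and gained Sult1b1 and Sult1c2, a floor of -5 lost Sult1d1, and log2(FPKM + 1) lost Sult2a1, Sult3a1 and Sult2a8 and gained Sult1b1 and Sult1c2. The count was 0 with no filter and 0 without the trend, 2 with sex as a covariate, and 3 to 7 when 1 mouse was left out, lowest without wild mouse 2. Over all tested genes, 2692 were called, against 8244 on log2(FPKM + 1), 8600 on log2(FPKM + 0.1), 8799 with a median of 0 on that scale, 21 with no filter, 7265 with quantile normalization, 5258 with a median of 0, 790 without the trend, 1316 with sex as a covariate, and 1422 to 2522 when 1 mouse was left out. With sex held, 2 of the 10 genes were called between wild and laboratory mice, against 4 on log2(FPKM + 1), 7 on log2(FPKM + 0.1), 5 with a median of 0 on that scale, 4 with quantile normalization, 5 with a median of 0 and 1 with repeated names kept, and 0 to 4 when 1 mouse was left out. Between females and males the 2 calls became 0 to 6 when 1 mouse was left out. The count was 0 without wild mouse 2 or 3 in both terms. Without the wild male the sex and origin terms could not be fitted apart. The cause of these shifts was not tested.

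Signs turned as follows. Sult5a1 between wild and laboratory mice was 0.54 on log2(FPKM + 1), 0.58 on log2(FPKM + 0.1), also in the exact permutation test (p = 0.7), and -0.36 to 0.19 when 1 mouse was left out (0.19 without wild mouse 1). Sult2b1 was 0.0025 with quantile normalization and -0.43 to 0.24 when 1 mouse was left out (positive without laboratory mouse 2 or wild mouse 3). With sex held, Sult2a8 was 0.11 on log2(FPKM + 1) and 0.11 on log2(FPKM + 0.1), Sult1b1 was -0.063 to 0.27 when 1 mouse was left out (-0.063 without laboratory mouse 3), and Sult2b1 was 0.013 on log2(FPKM + 1), 0.12 on log2(FPKM + 0.1), 0.46 with a floor of -5, 0.43 with quantile normalization, 0.071 with a median of 0 and -0.51 to 0.15 when 1 mouse was left out. Between females and males, Sult2b1 was -0.037 on log2(FPKM + 1), -0.30 on log2(FPKM + 0.1), -0.52 with a median of 0 on that scale, -0.87 with a floor of -5, -0.64 with quantile normalization, -0.34 with a median of 0 and -0.40 to 0.66 when 1 mouse was left out (-0.40 without wild mouse 2). With a median of 0 in zFPKM, Sult1a1 was -0.23, Sult1b1 -0.031, Sult1c2 -0.058 and Sult1d1 -0.20 in that term.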
